A study of Mus musculus with 16 samples.

Results

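Genes of the myelin sheath and of mature oligodendrocytes were followed through bulk RNA-sequencing libraries of the mouse dorsal hippocampus: Mbp, Mog, Mag, Mobp, Cnp, Cldn11, Opalin, Ermn and Mal. They were picked by symbol from what is known of myelin, at a time when earlier results of these data were known, and are 9 of the 24972 genes in the files. The 16 libraries came from trained and untrained ArcCreERT2::eYFPflx mice on a C57BL/6 background, all adult and all carrying the same alleles, in which CreERT2 is driven from the Arc gene. Trained mice had learned to avoid a shock zone on a rotating arena (active place avoidance, APA), untrained mice were exposed to the arena with no shock, and the tissue was taken an hour after a retention test. CA1, CA3 and the dentate gyrus (DG) were microdissected from live sections, and the pieces of 1 animal were pooled by subregion. The groups were CA1 trained (n = 3) and untrained (n = 3), CA3 trained (n = 3) and untrained (n = 2), and DG trained (n = 3) and untrained (n = 2), where n counts libraries of separate animals. The libraries of CA3 untrained 3 and DG untrained 2 were not analysed here. Every value below is a normalized estimated count, whose depth in reads is unknown.

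Oligodendrocytes wrap axons of the central nervous system in myelin, a compacted stack of their own membrane. The sheath speeds conduction along the axon, and the oligodendrocyte feeds the axon beneath it. In the hippocampus myelin is sparse in the cell layers and denser in the alveus, the fimbria and the afferent paths, and new oligodendrocytes continue to form from precursors in the adult. In whole tissue, fewer oligodendrocytes and less RNA per oligodendrocyte cannot be told apart.

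The 9 genes take different places in the sheath. Mbp (myelin basic protein) zips the cytoplasmic faces of the membrane together, Mobp is a further small basic protein of compact myelin, and Mal is a raft proteolipid that sorts myelin proteins. Cldn11 forms the tight junctions between the wraps. Mog sits on the outermost surface, Mag on the innermost face against the axon, and Opalin is a glycoprotein of the oligodendrocyte membrane. Cnp is a phosphodiesterase that keeps cytoplasmic channels open, and Ermn is a cytoskeletal protein of late differentiation. In the GENCODE annotation of GRCm38 they lie on 8 chromosomes, with Ermn (58045113 to 58052864) and Mal (127633226 to 127656695) both on chromosome 2. The other genes are Cldn11 on chromosome 3 (31149920 to 31164324), Mag on 7 (30899176 to 30914873), Mobp on 9 (120149707 to 120181484), Cnp on 11 (100574904 to 100591729), Mog on 17 (37010743 to 37023398), Mbp on 18 (82475146 to 82585637) and Opalin on 19 (41061710 to 41077113). An exon of Cnp overlaps one of Dnajc7 on the opposite strand and an exon of Ermn one of Galnt5, and the sources used here do not state whether reads were counted by strand.

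Promoter sequence was available for 8 of the 9 genes in RefSeq on GRCm38.p6 (all but Mbp). The 250 bases upstream of the start were searched on both strands for letters that oligodendrocyte transcription factors are known to prefer. ACAAAG, a SOX-type motif of the kind SOX10 binds, was present in 4 of 8 (Mag, Mobp, Cnp and Opalin), against 16.5% of 32536 promoters of all genes. CTGGNAC, the motif type of MYRF, the factor that switches on myelin genes, was present in 3 of 8 (Mag, Cnp and Mog), against 15.9%. The upstream sequences of these 5 genes are shown because they hold the matches, 5′ to 3′ in the direction of transcription and ending at the base before the start. Mag, Mobp and Cnp are shown up to the first base that GENCODE gives to the gene, which leaves out 10, 35 and 35 bases. Capitals mark ACAAAG or CTGGNAC on either strand.
Mag chr7:30914874-30915113 (-): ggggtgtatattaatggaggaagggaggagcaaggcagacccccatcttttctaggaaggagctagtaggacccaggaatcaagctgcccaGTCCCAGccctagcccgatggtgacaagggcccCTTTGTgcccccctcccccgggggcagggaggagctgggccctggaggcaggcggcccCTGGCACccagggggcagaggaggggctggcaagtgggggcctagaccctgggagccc
Mobp chr9:120149492-120149706 (+): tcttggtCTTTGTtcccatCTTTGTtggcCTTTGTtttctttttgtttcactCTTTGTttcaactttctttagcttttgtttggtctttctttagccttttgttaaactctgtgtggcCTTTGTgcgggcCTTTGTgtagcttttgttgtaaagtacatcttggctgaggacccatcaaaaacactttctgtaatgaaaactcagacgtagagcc
Cnp chr11:100574689-100574903 (+): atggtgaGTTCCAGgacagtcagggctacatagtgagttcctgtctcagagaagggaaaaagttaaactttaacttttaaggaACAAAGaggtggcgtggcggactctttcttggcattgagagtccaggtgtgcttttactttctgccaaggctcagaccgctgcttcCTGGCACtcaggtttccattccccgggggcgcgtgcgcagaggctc
Mog chr17:37023399-37023648 (-): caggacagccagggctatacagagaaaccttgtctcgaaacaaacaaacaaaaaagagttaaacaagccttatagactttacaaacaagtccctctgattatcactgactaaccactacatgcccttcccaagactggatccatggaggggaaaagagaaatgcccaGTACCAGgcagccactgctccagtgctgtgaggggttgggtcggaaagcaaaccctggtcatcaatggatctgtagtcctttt
Opalin chr19:41077114-41077363 (-): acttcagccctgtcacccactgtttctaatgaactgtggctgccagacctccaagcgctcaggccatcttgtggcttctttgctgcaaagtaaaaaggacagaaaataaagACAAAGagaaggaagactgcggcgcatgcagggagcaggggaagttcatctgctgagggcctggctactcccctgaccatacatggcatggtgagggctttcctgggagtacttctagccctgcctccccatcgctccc
Mobp held 6 copies of the SOX-type letters, all on the reverse strand. Mag and Cnp each held both motif types, and RefSeq lists 3 starts for Mag, of which one is shown. Of the other motifs, ACAATG was in Ermn alone (10.5% of all promoters), CAGATG in Opalin alone (14.4%), CCAAT in Ermn and Cldn11 (33.8%) and GGGCGG in Cnp alone (33%). CAGCTG (13.1%) and TATAAA (12.3%) were in none of the 8. These are letter matches in a short window and say nothing of binding.

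Some features of the libraries bear on every comparison. The values summed to between 7607326 and 7984931 per library. Between 7567 and 9759 genes were listed at 0 in 7 libraries and between 3124 and 5944 in the other 9, and the myelin level spanned 0.812 to 1.17 times its 16-library mean in the former and 0.744 to 1.50 times in the latter. The study's methods give both sexes in both training groups. In the files, Xist was between 7601 and 19592 in all 9 trained libraries and between 25.5 and 52.4 in 6 of 7 untrained ones. CA3 untrained 1 went against its group with Xist at 10587. CA1 untrained 1 and DG untrained 1, labelled as the same animal, had Xist at 26.1 and 25.5. CA3 untrained 1 and DG trained 3 had Ddx3y, a Y-linked gene, at 201 and 255 beside high Xist. In CA1 trained 1, CA1 trained 3 and CA3 trained 3 it was between these and the rest, at 70.9, 101 and 92.9, against 1.66 to 12.9 in the other 5 trained libraries. In CA1, the libraries with many genes at 0 were all the trained ones (8323 to 9759, against 3124 to 5425 untrained), and in DG both the untrained ones (7567 and 8636, against 3479 to 5944 trained). In these subregions this feature and training cannot be told apart, while in CA3 it marked trained 1 and 2 only. Training and the sex-linked transcripts also largely cannot be told apart. Tests of the 9 genes that use CA3 untrained 1 or DG trained 3 are also given without them. Tests of the markers of other cell types are given only with them.

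The subregion labels were checked against marker genes. Of 4 markers of CA1 pyramidal neurons, 3 were higher in CA1 than in CA3, among them Wfs1 with a log2 difference of 1.33 (adjusted p = 0.0382, limma) and Man1a with 0.92 (adjusted p = 0.00106), while Fibcd1 did not pass (adjusted p = 0.164). Against DG, 1 of the 4 passed (Man1a). The 4 CA1 markers summed to 2532 to 3987 in untrained CA1 libraries, above every CA3 and DG library. In trained CA1 they summed to 1307 to 1721, overlapping trained CA3 (838 to 1326.5) and trained DG (1061 to 1553). Of 4 CA3 pyramidal markers only Grik4 passed, with a log2 difference of -0.39 for CA1 minus CA3 (adjusted p = 0.0216), and none of these markers passed between CA3 and DG. None of 5 markers of dentate granule cells passed the test between subregions. Prox1, their defining transcription factor, had medians of 3576 (CA1), 3902 (CA3) and 3367 (DG), while Tdo2 was 93.0 to 105 in DG against 40.2 to 89.5 in CA1 (log2 difference of -0.45 for CA1 minus DG, adjusted p = 0.105). The labels are used below as given, and transcripts of granule cells were abundant in the CA1 and CA3 libraries too.

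Myelin transcripts were abundant in every library. No member was listed at 0 anywhere, and together the 9 made up 0.130% to 0.274% of a library's summed values. Mbp averaged 8213 over the 16 libraries, and 76 of 24972 genes had a higher mean. Opalin was the scarcest member, at a mean of 60.2.

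Genes can be ranked against each other only per length. Per kilobase of the median coding transcript, Mobp averaged 5303 ± 1332 (SD, n = 16 libraries) and Mbp 4246 ± 1061. These neighbours lay within their spread of each other, and the order depends on the transcript, since with the longest one Mobp would stand at 804 per kilobase and Mbp at 1712. Next came Cnp at 467 ± 83.1 and Mal at 400 ± 77.6, again within their spread. Mag (274 ± 62.0) and Cldn11 (253 ± 60.5) could not be separated either. Mog followed at 148 ± 34.2, then Ermn at 78.7 ± 14.5 and Opalin at 32.7 ± 8.68, steps larger than the spread between libraries. With the shortest coding transcript Mag (1553) and Mal (1343) would instead stand above Cnp and Mog (274) above Cldn11, and with the longest Mal (235) and Mag (216) below Cldn11, while Ermn and Opalin were lowest with each.

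The main pattern was a common movement of the 9 genes from library to library. CA3 trained 3 and CA1 untrained 3 held the 2 highest values of 8 of the 9 genes, Opalin being the exception. CA3 untrained 1 was lowest for 6 of the 9 and among the lowest 3 libraries for 8. By their labels these 3 libraries came from 3 different animals, though Xist in CA3 untrained 1 was unlike that in the other libraries labelled as its animal.

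Mbp shows the pattern in full. In CA1, its value was 7765, 7123 and 7068 in trained 1 to 3 and 8099, 7490 and 12672 in untrained 1 to 3. In CA3, it was 6297, 8859 and 12305 in the trained libraries and 5816 and 9757 in untrained 1 and 2. In DG, it was 6816, 6377 and 6986 in the trained libraries and 7758 and 10227 in untrained 1 and 3. The highest value was thus 2.18 times the lowest. In CA1 only untrained 3 stood apart, whereas the 5 CA3 libraries were spread over the whole range from 5816 to 12305.

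**Figure D1:**
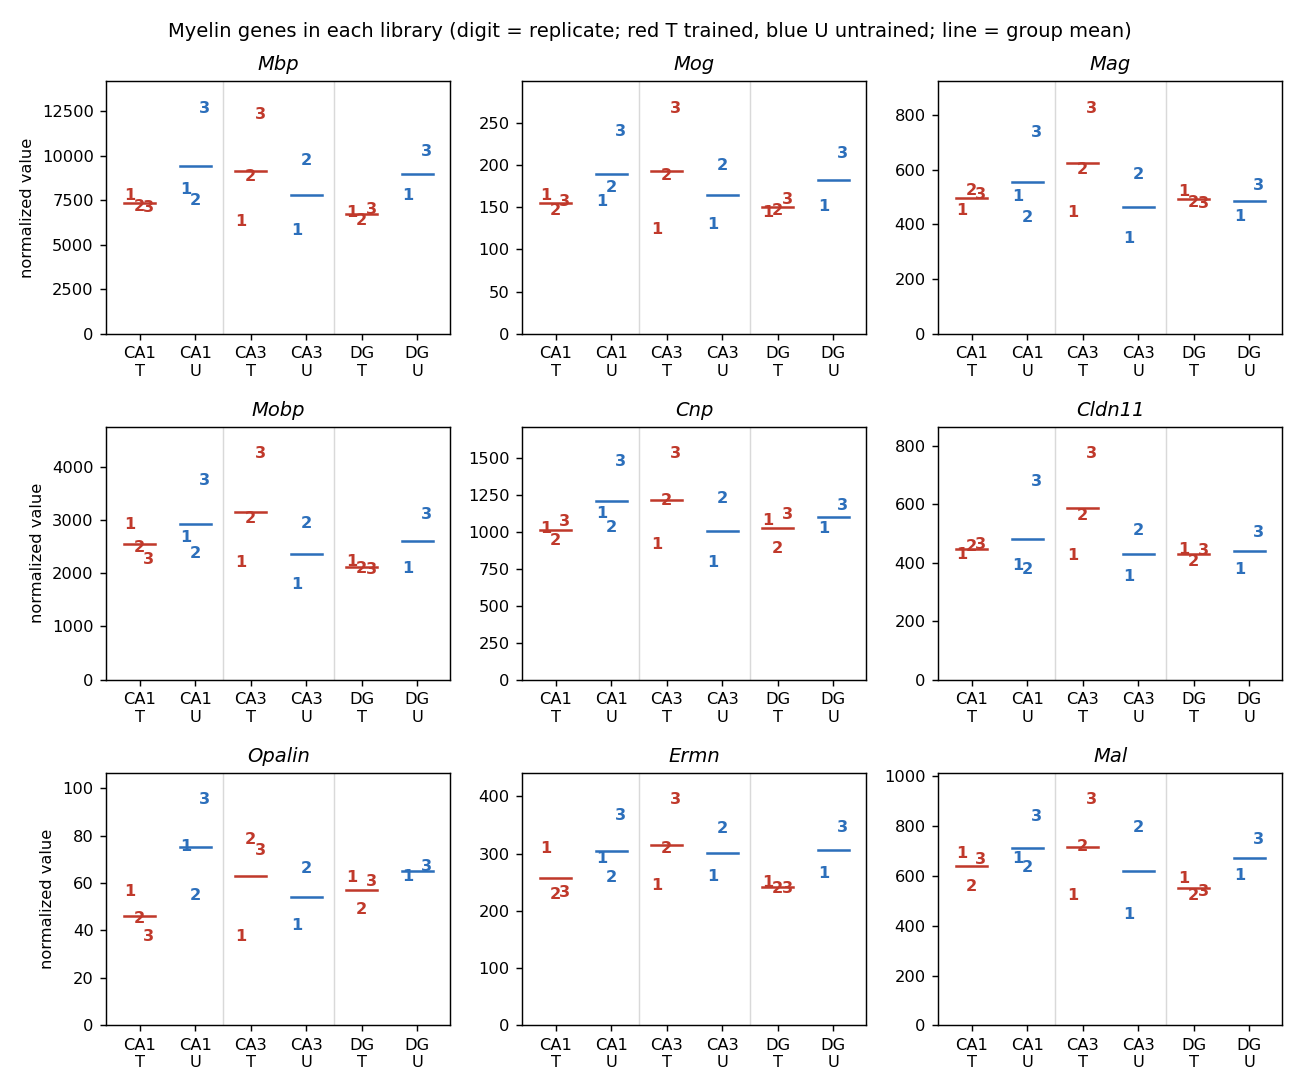
Normalized value (vertical axis, from 0) of each of the 9 myelin genes in the 16 libraries, by subregion and training. Digits are replicate numbers in red (trained, T) or blue (untrained, U), and lines are group means. CA1 untrained 3 and CA3 trained 3 stand high in nearly every panel, Mbp reaching 12672 and 12305 there.

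The other members had the same profile with different amplitude. The ratio of the highest to the lowest library ran from 1.72 for Ermn to 2.54 for Opalin. Mobp ranged from 1793 (CA3 untrained 1) to 4247 (CA3 trained 3), Cnp from 794 to 1527 and Mal from 445 to 906 in the same pair of libraries. Mag went from 348 to 825 and Cldn11 from 352 to 771, again between these libraries. Mog was lowest in CA3 trained 1 (123) and highest in CA3 trained 3 (267). Ermn was lowest in CA1 trained 2 (229).

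Opalin moved with the others least closely. It peaked at 95.1 in CA1 untrained 3 but stood at 73.7 in CA3 trained 3, below its 78.2 in CA3 trained 2. Its minimum of 37.5 was shared by CA1 trained 3 and CA3 trained 1.

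Averaged over the 9 genes on the log scale, CA3 trained 3 stood at 1.50 times the 16-library mean and CA1 untrained 3 at 1.43 times. DG untrained 3, CA3 untrained 2 and CA3 trained 2 came next at 1.17, 1.16 and 1.16 times. CA3 untrained 1 was at 0.744 times, CA3 trained 1 at 0.812 times and DG trained 2 at 0.845 times. The remaining 8 libraries lay between 0.892 and 1.02 times, so CA3 held both the extremes while the trained CA1 (0.892 to 0.992) and trained DG (0.845 to 0.932) libraries were tight. The animal labelled trained 3 gave the highest library of CA3 but stood at 0.902 in CA1 and 0.915 in DG, while untrained 3 was the highest in both CA1 and DG.

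**Figure D2:**
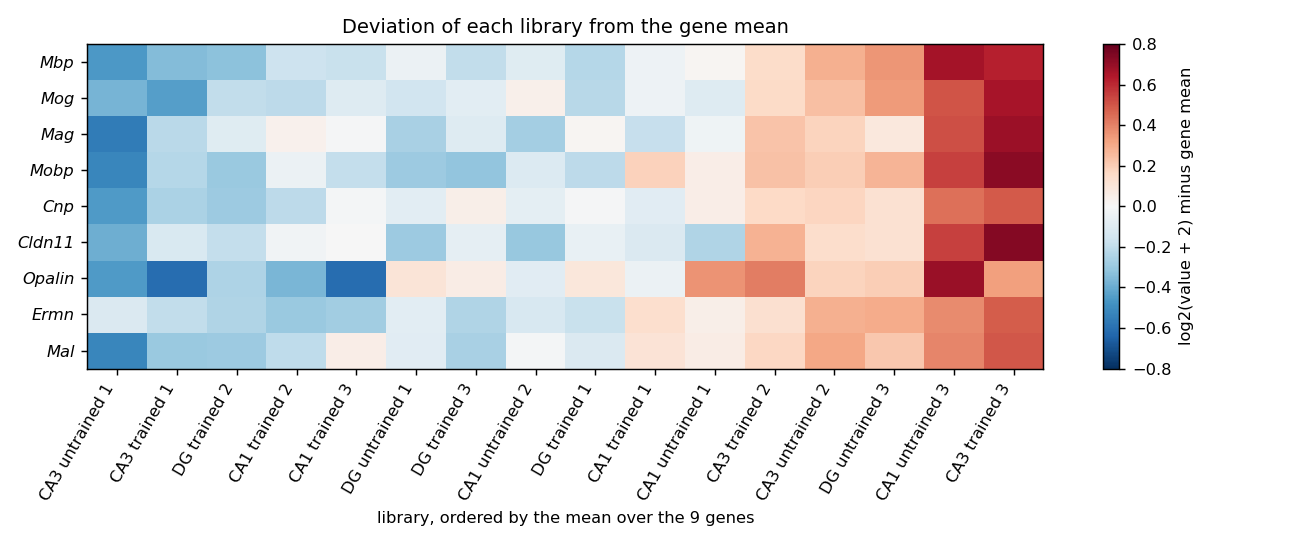
Deviation of log2(value + 2) from the gene's mean over 16 libraries (color, red high and blue low) for the 9 genes (rows) and 16 libraries (columns), ordered by the mean of the 9. The 3 lowest columns are blue and the 5 highest red for every gene, from CA3 untrained 1 (0.744 times the mean) to CA3 trained 3 (1.50 times), and the 8 between mix both colors.

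The closeness of this movement can be put in figures, as descriptions over the same 16 libraries, several of which share an animal. Pearson's r of each gene with the mean of the other 8 was 0.976 for Mbp, 0.949 for Cnp, 0.948 for Mog, 0.944 for Mobp and 0.929 for Mal. It was 0.891 for Mag, 0.877 for Ermn, 0.874 for Cldn11 and 0.754 for Opalin. With the means of the 6 groups removed, the values were higher for 7 of the 9 genes and ran from 0.823 (Opalin) to 0.993 (Mbp), so the movement is within groups. Over the 36 pairs of members, r had a median of 0.865 and ran from 0.578 to 0.961. Without CA3 untrained 1 and DG trained 3 the median was 0.869, and r with the other 8 ran from 0.739 (Opalin) to 0.972 (Mbp).

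The proportions of the transcripts varied less than their amounts. Mog stayed between 1.89% and 2.31% of the Mbp value in every library, Mag between 5.32% and 7.62%, and Mobp between 27.1% and 37.6%. Opalin was the loosest, between 0.530% and 0.929%. The standard deviation of the log2 ratio to Mbp ran from 0.0927 (Mog) to 0.238 (Opalin). The standard deviation of log2 values over the libraries was 0.248 (Cnp) to 0.376 (Opalin) for the members, against a median of 0.139 over the 8883 genes with a mean of at least 100, of which 722 exceeded the lowest member. Measured against this median, the ratios of Opalin, Cldn11 (0.176), Mag (0.171) and Ermn (0.145) to Mbp still varied more.

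Genes outside the 9 were ranked by their r with the mean of the 9. Among the likest were Plekhb1 (0.935), Tspan2 (0.913), a tetraspanin of oligodendrocytes, Ttyh2 (0.911), Ndrg1 (0.910), Gjc3 (0.908), a connexin of myelinating glia, Plekhh1 (0.897), Anln (0.893), which encodes a septin-binding protein, Myrf (0.890), the transcription factor of myelination, and Trf (0.876), which encodes transferrin. Tspan2 was 677 in CA1 untrained 3 and 705 in CA3 trained 3, its 2 highest, and 432 in CA3 untrained 1. Over the 14664 other genes tested the median r was 0.02, and 31 (0.211%) reached 0.8.

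With group means removed, Trf, Tspan2, Myrf, Gjc3 and Ttyh2 stayed among the 10 likest, and Kif5a, Sh3rf1, Rapgef4 and Adamts4 came in. Kif5a, a neuronal kinesin, reached r = 0.955 within groups against 0.662 over the 16 libraries. Genes at the other end had r down to -0.84 (Sipa1l2).

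Along the oligodendrocyte lineage, the median likeness to the 9 genes over the 16 libraries was lower for lists of earlier stages. The 25 tested genes of 27 in a list of other mature oligodendrocyte genes had a median r of 0.741, and 10 of them reached 0.8. Myelin lipid and metabolic enzymes had a median of 0.638 over 9 genes, led by Fa2h (0.861), which hydroxylates the fatty acids of myelin lipids. For 8 transcription factors the median was 0.290, with Myrf and Sox10 (0.702) the highest and Tcf7l2 (-0.17) the lowest. For 8 genes of newly formed oligodendrocytes it was 0.146, with Bcas1 at 0.869, Enpp6 at 0.606 and Rras2 lowest at -0.52. Of these, 9630013A20Rik and Bmp4 were scarce, at mean values of 7.38 and 7.53. For 10 genes of precursors it was -0.05, none reached 0.8, and values ran from -0.52 (Tnr) to 0.679 (C1ql1). Pdgfra, the receptor that defines these cells, was at -0.46. With group means removed the medians of these lists were 0.801, 0.794, 0.365, 0.020 and 0.094, so newly formed oligodendrocytes then stood below precursors.

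Glial and vascular lists had low medians. The median r was 0.092 for 8 microglial genes, -0.24 for 8 astrocyte genes and -0.16 for 6 endothelial genes, the last falling to -0.58 with group means removed. In the Schwann cell list, which would mark peripheral nerve, 2 of 4 genes were too low to be tested. For 6 general neuronal genes the median was 0.150 over the 16 libraries but 0.634 with group means removed, where Syt1, a calcium sensor of synaptic vesicles, reached 0.891 and Stmn2, a microtubule regulator, 0.882. Spock1, a CA3 pyramidal marker, reached 0.868 in the same way. The dentate granule list had the lowest median of all lists, -0.63 over 5 genes, and an r of -0.75 for their mean level.

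**Figure D3:**
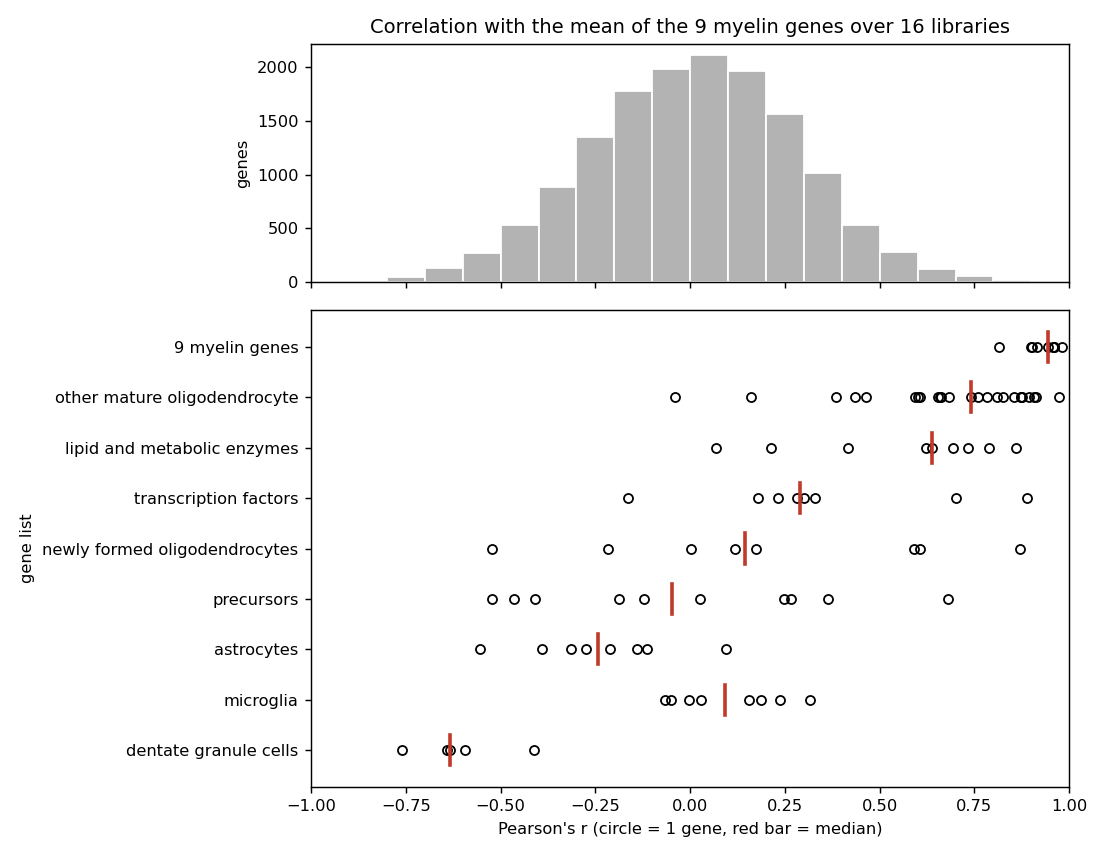
Pearson's r with the mean of the 9 myelin genes over 16 libraries. The top panel counts all other tested genes by r, and the lower panel shows each gene of 9 lists as a circle with the list's median in red. Other mature oligodendrocyte genes center on 0.741, precursors on -0.05 and dentate granule cell markers on -0.63.

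Myelin and dentate markers mostly moved in opposite directions, with an r of -0.71 for the mean dentate level without CA3 untrained 1 and DG trained 3, and of -0.69 without CA3 untrained 1 alone. The 2 libraries highest in myelin, CA1 untrained 3 and CA3 trained 3, had the lowest mean log2 levels of the 5 dentate markers, 9.48 and 9.50. CA3 untrained 1, lowest in myelin, had the highest, 10.19. DG untrained 3 went against the pattern, being the third highest in myelin and having the next highest dentate level, 10.04. Prox1 ranged from 2690 to 4786 among the CA3 libraries. The amount of white matter and of granule cell layer in each dissected piece was not measured, and their part in the myelin level was not tested.

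**Figure D4:**
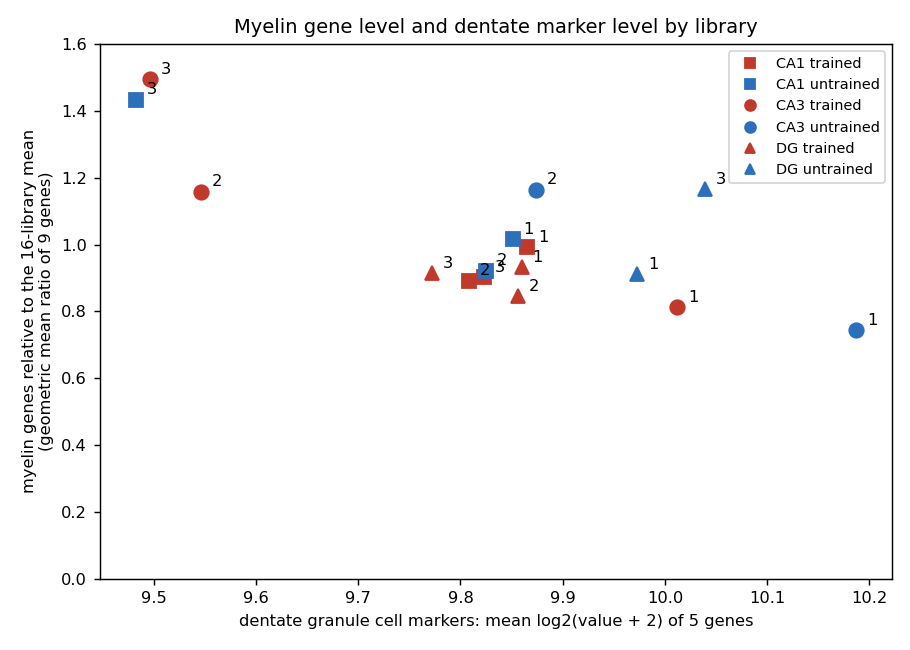
Mean level of the 9 myelin genes relative to the 16-library mean (vertical axis, linear from 0) against the mean log2(value + 2) of 5 dentate granule cell markers (horizontal axis), with 1 point per library marked by subregion (shape), training (color) and replicate number. CA3 trained 3 and CA1 untrained 3 lie at the upper left and CA3 untrained 1 at the lower right.

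Subregions were compared with training in the model, between libraries that the dentate granule markers did not separate. A lack of calls here therefore does not show that myelin transcripts are alike along the hippocampal circuit. Mbp averaged 8369 ± 2143 in CA1 (SD, n = 6), 8607 ± 2654 in CA3 (n = 5) and 7633 ± 1534 in DG (n = 5). Mobp averaged 2745 ± 546, 2841 ± 940 and 2316 ± 442, and Opalin 60.6 ± 21.2, 59.5 ± 18.6 and 60.3 ± 6.88. For these 3 genes the means differed by less than the spread between libraries, except for Mobp in CA3 and DG. Those means differed by more than the SD in DG, though less than that in CA3. The same held for Cldn11 (524 ± 160 in CA3, 434 ± 47.3 in DG) and Mag (560 ± 181 and 490 ± 44.3).

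None of the 9 genes passed an adjusted p of 0.05 in limma in any pair of subregions, nor an unadjusted p of 0.05. Of all 14673 genes tested, 0.988% passed between CA1 and CA3, 4.05% between CA1 and DG and 0.00682% between CA3 and DG. The median log2 difference of the members was 0.0056 for CA1 minus CA3, 0.07 for CA1 minus DG and 0.09 for CA3 minus DG, against medians within 0.01 of 0 over all genes. The standard errors ran from 0.134 to 0.220, and over the members and pairs the 95% intervals reached from -0.54 to 0.68. Libraries of the same animal entered these comparisons together, and a term for the animal changed no call. Without CA3 untrained 1 and DG trained 3 the medians were -0.17, 0.081 and 0.27, with no call.

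Training was compared first in CA1. All 9 genes had lower mean log2 values in trained mice (whose libraries all had many genes at 0) than in untrained mice, with a median log2 fold change of -0.24 against 0.0003 over all genes, but none passed the test. In that comparison 5.23% of 13588 genes passed. At an unadjusted p of 0.05 Opalin alone did.

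Opalin was 56.2, 44.8 and 37.5 in the trained CA1 libraries and 75.2, 54.6 and 95.1 in the untrained ones. Trained 1 lay above untrained 2, so the groups overlapped. The log2 fold change was -0.66 (SE 0.227, adjusted p = 0.104).

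Mag, at the inner face of the sheath, was 452, 526 and 510 in the trained CA1 libraries and 501, 424 and 735 in the untrained ones. Cldn11 was 427, 454 and 461 against 391, 375 and 676. For both, untrained 3 was far above the rest while untrained 2 was the lowest of the 6. Their log2 fold changes were -0.12 ± 0.212 (SE) and -0.05 ± 0.252.

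The direction of the whole set in CA1 owed much to untrained 3. Mbp was -0.33 on the log2 scale with it (SE 0.235, adjusted p = 0.555) and -0.09 without it. Without that library Mag (0.10), Mobp (0.01) and Cldn11 (0.22) were higher in trained mice, and the median of the 9 was -0.09. In no gene did the trained and untrained CA1 libraries fail to overlap, whereas 24% of all genes did not overlap there.

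In CA3 the signs were opposite. All 9 genes had higher mean log2 values in trained mice, with a median of 0.23 against -0.0058 over all genes, and none passed the test or an unadjusted p of 0.05. The share of all genes that passed was 0.852% of 13848.

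Mag was 443, 603 and 825 in the trained CA3 libraries and 348 and 581 in the untrained ones. Mobp was 2199, 3027 and 4247 against 1793 and 2942. Cldn11 was 424, 561 and 771 against 352 and 510. Both groups were widely spread, and the lowest trained library lay below the higher untrained one in every case.

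The log2 fold changes were 0.42 ± 0.388 (SE) for Mag, 0.41 ± 0.412 for Mobp and 0.42 ± 0.319 for Cldn11 (adjusted p = 0.590). The standard errors of the members ran from 0.213 to 0.428, against a median of 0.130 over all genes. Trained and untrained CA3 libraries overlapped for all 9 members, while 33.9% of all genes did not overlap.

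The sign in CA3 rested on few libraries. Without trained 3 the median was 0.042 and Mbp, Mog and Ermn were lower in trained mice, and without trained 1 it was 0.47. Without untrained 1, whose sex-linked transcripts stand apart, 1 untrained library remained, assumed to vary like the trained ones, and 6 of 9 members were lower in trained mice: Mbp (-0.15), Mog (-0.11), Cnp (-0.04), Opalin (-0.13), Ermn (-0.15) and Mal (-0.19). The median was then -0.11. Without untrained 2 instead, all 9 were higher, with a median of 0.60. Of 7 choroid plexus markers, 2 passed between the CA3 groups, and their summed level was 254 to 344 in trained and 839 to 1160 in untrained libraries. Most of this gap was Ttr, the transthyretin of that tissue, at 66.2 to 72.4 against 560 and 834 (log2 fold change -3.29, adjusted p = 7.3e-06), while Kl and Sostdc1 overlapped between the groups. Of 4 CA3 pyramidal markers 1 passed, Cdh24, higher by 1.13 (adjusted p = 0.00861), and the list summed to 2387 to 3759 in trained and 1494 to 2204 in untrained libraries. The summed levels of general neuronal genes (47410.5 to 52521 against 43255 to 46894) and of leptomeningeal genes (309 to 340.3 against 412 to 500.4) also did not overlap. Nor did those of CA2 pyramidal markers (1373.7 to 1457.6 against 1475.7 to 1916.3), and no gene of these lists passed. Their part in the myelin values was not tested.

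**Figure D5:**
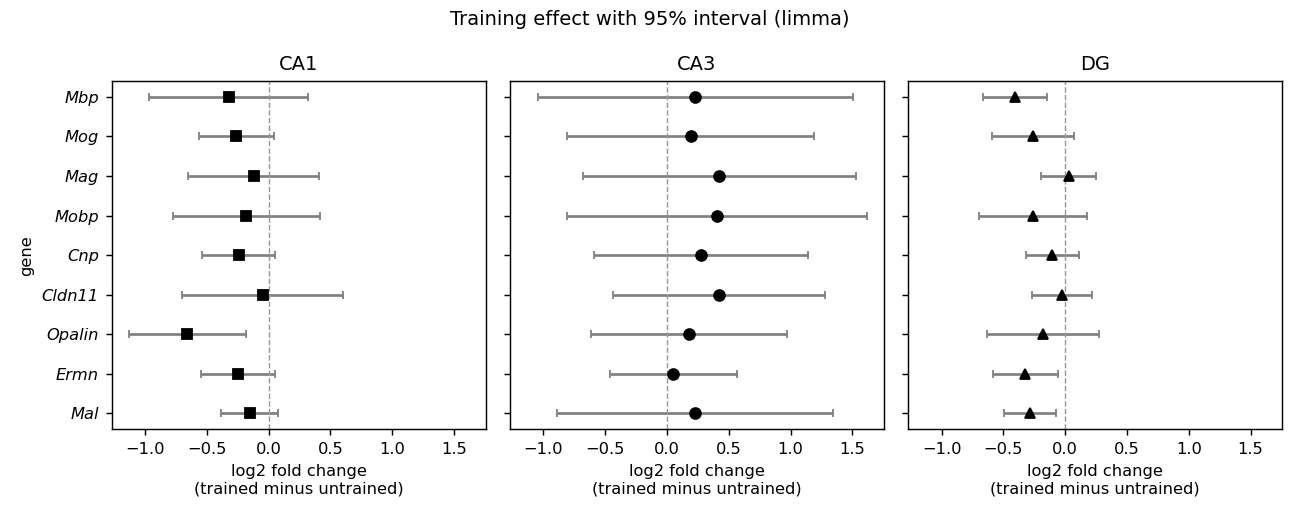
Log2 fold change of trained against untrained mice with its 95% interval (limma, horizontal axis) for the 9 myelin genes (vertical axis) in CA1, CA3 and DG. The medians are -0.24, 0.23 and -0.26, and the intervals are widest in CA3.

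Of the 3 subregions DG gave the smallest standard errors for 8 of the 9 genes, Mog being the exception. There, 8 of the 9 genes had lower mean log2 values in trained mice than in untrained mice (whose libraries both had many genes at 0) and Mag a higher one, with a median of -0.26 against 0.0008 over all genes. No member passed the adjusted test, for which the share of all genes was 3.39% of 13935. Mbp, Ermn and Mal reached an unadjusted p of 0.05.

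Mbp was at or below 6986 in the trained DG libraries and at or above 7758 in the untrained ones, as listed above. Ermn was 249, 239 and 239 in trained mice and 265 and 347 in untrained mice. Mal was 591, 524 and 536 against 603 and 745. Every trained library lay below every untrained one for these genes, and the margin for Mal was small.

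The log2 fold changes were -0.41 for Mbp (SE 0.111, adjusted p = 0.104, 0.755-fold with a 95% interval of 0.629 to 0.905), -0.32 for Ermn (SE 0.125, adjusted p = 0.166) and -0.29 for Mal (SE 0.0997, adjusted p = 0.123). Opalin also did not overlap, at 62.3, 48.7 and 60.8 against 62.6 and 67.1. With these 4 of 9 members every trained library was below every untrained one, which held for 18.2% of all genes in DG.

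At the other end of the set, Mag was 520, 481 and 478 in trained and 428 and 544 in untrained DG libraries (log2 fold change 0.03 ± 0.105 SE), and Cldn11 was 444, 404 and 440 against 378 and 503 (-0.02 ± 0.115). Untrained 1 was the lowest library of the 5 for both. Cnp was 1077, 886 and 1120 against 1025 and 1180.

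In DG whether members passed depended on the setting. With no robust estimation and with the replicate block, Mbp alone passed. Without untrained 1, so that untrained 3 stood alone and was assumed to vary like the trained libraries, Mbp (-0.61), Mobp (-0.54), Ermn (-0.51) and Mal (-0.44) passed an adjusted p of 0.05. Without untrained 3, the median of the 9 was -0.01 and Mbp alone passed (-0.21, adjusted p = 0.0384). Mbp was lower in trained mice under every alternative run, between -0.61 and -0.21, and Mbp passed under 4 of the 14. Dropping DG trained 3, whose sex-linked transcripts stand apart, gave a median of -0.24 and no call.

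Single genes of other cell type lists passed in DG, where 3.39% of all genes passed. Flt1, a receptor of vessel endothelium, fell by 0.94 on the log2 scale with training (adjusted p = 0.00142) and Prox1 fell by 0.31 (adjusted p = 0.00965), 1 of 6 endothelial and 1 of 5 granule cell genes to pass. One gene each of the pericyte (Rgs5), CA2 pyramidal (Pcp4) and deep layer (Prkcd) lists also fell, by 0.51, 0.38 and 0.60. The summed level was 562 to 649 in trained and 799 to 1000.2 in untrained libraries for the endothelial list, and 7200.2 to 7663 against 8790.1 to 9252 for the granule cell list. Their part in the myelin values was not tested.

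Over the 3 subregions combined, with subregion in the model, the members' log2 fold changes ran from -0.25 (Opalin) to 0.10 (Cldn11) with a median of -0.08 against -0.01 over all genes. None passed, nor reached an unadjusted p of 0.05, where 10.3% of all 14673 genes passed. The 95% intervals reached from -0.61 to 0.45. Without CA3 untrained 1 and DG trained 3 the median was -0.20, with a covariate for the sex-linked transcripts it was 0.67, and no member passed in either fit. This model treats libraries of 1 animal as independent.

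Whether training acted differently between subregions was tested as an interaction. No member passed in any of the 3 pairs, for which 0.0273% (CA1 against CA3), 2.75% (CA1 against DG) and 0.164% (CA3 against DG) of all genes passed. The medians of the differences were -0.52, -0.0031 and 0.44. Opalin alone reached an unadjusted p of 0.05, in CA1 minus CA3, with a difference of -0.84 (SE 0.378, adjusted p = 0.686). The opposite signs in CA1 and CA3 were therefore within the error of the design. Without CA3 untrained 1 and DG trained 3 the medians were -0.18, 0.040 and 0.17. With a term for the libraries with many genes at 0 they were -0.31, 1.26 and 1.52, with no call, and this term could be estimated from the trained CA3 libraries alone, the one group with both kinds.

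Some genes that act with the 9 did pass, to be read beside the 5.23% of all genes that passed in CA1. There, none of 8 transcription factors, 6 tested genes of newly formed oligodendrocytes or 10 precursor genes passed. In CA1, 1 of 9 lipid and metabolic enzymes passed: Ugt8a, which makes the galactosylceramide of myelin, fell by 0.57 on the log2 scale (SE 0.124, adjusted p = 0.00956). Cryab, a small heat shock protein of oligodendrocytes and astrocytes, fell by 0.56 (SE 0.117, adjusted p = 0.00751), 1 of 24 tested genes of the mature list. Ugt8a passed with each animal left out in turn, and Cryab did not without trained 2 (adjusted p = 0.0556). In a fit of all 16 libraries neither passed (adjusted p = 0.0865 and 0.108).

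In trained CA1, 5 of 6 general neuronal genes rose, with Snap25, a synaptic vesicle fusion protein, at 0.40 (adjusted p = 9.6e-06). Their summed level was 46343 to 46923 in the trained libraries and 40066 to 41745 in the untrained ones. Of 4 CA1 pyramidal markers Fibcd1 fell by 1.32 (adjusted p = 0.0139), and the list summed to 1307 to 1721 in trained and 2532 to 3987 in untrained libraries, while 3 of 4 CA3 pyramidal markers rose, with Spock1 at 0.68 (adjusted p = 0.000307). One gene each of the astrocyte (Aqp4), leptomeningeal (Dcn) and dentate granule (Lct) lists fell, by 0.35, 1.20 and 0.20, and one of the deep layer list (Hs3st4) rose by 0.62. The median log2 fold changes of these lists were 0.03, -0.27, 0.17 and 0.22, so Aqp4 and Lct went against the medians of their lists. Their part in the lower myelin values was not tested.

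In DG, where 3.39% of all genes passed, 1 of 9 lipid and metabolic enzymes and 1 of 6 tested genes of newly formed oligodendrocytes passed. None of 25 tested genes of the mature list, 8 transcription factors or 10 precursor genes did. Qdpr, which regenerates tetrahydrobiopterin, rose by 0.32 (SE 0.0833, adjusted p = 0.0441), and Bcas1, a marker of early myelinating cells, fell by 0.48 (SE 0.115, adjusted p = 0.0345). Bcas1 moved with the 9 genes over the libraries, as given above, and had the sign of Mbp here. Leaving out any 1 of the trained animals ended both calls (adjusted p from 0.112 to 0.207 for Qdpr), and leaving out untrained 3 also ended that of Bcas1 (0.0559 to 0.173 over these 4).

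Among 8 transcription factors Olig1 alone passed in CA3, where 0.852% of all genes passed. It rose by 0.51 (SE 0.0957, adjusted p = 0.0382), and leaving out any 1 animal but trained 1 ended the call. Its group means were 337 in trained and 235 in untrained CA3 libraries. Over the subregions combined, where 10.3% of all genes passed, 2 of the 8 passed. Olig1 rose by 0.31 (adjusted p = 0.00941) and Olig2, its partner, by 0.31 (adjusted p = 0.0439). Olig1 was lost without trained 1, trained 2, untrained 1 or untrained 2 (0.0518 to 0.0833), and Olig2 with any animal but untrained 3 left out (0.0558 to 0.366). Neither passed with the sex-linked covariate (0.633 and 0.283), and Olig2 also missed without CA3 untrained 1 and DG trained 3 (0.182) and with the replicate block (0.0638). Their r with the 9 genes was 0.178 and 0.300.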

How the data were processed

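Bulk RNA-seq of 16 hippocampal libraries was used. Per the labels, the authors' tools included Trim Galore, STAR and DESeq2, with GRCm38 as the build. The paper's methods for these libraries name STAR, Salmon and DESeq2 and pair mm10 with the name GRCm39, a conflict that was not settled, and positions here are on GRCm38. The deposited values are a normalized signal: estimated counts scaled between libraries by a step not given in the sources used here, and whole reads could not be recovered. A count test was therefore not run.

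Genes with a value of at least 10 in as many libraries as the smallest group were tested with limma 3.58.1 (R 4.3.3) on log2(value + 2), with trend, robust estimation and Benjamini-Hochberg adjustment over all genes (threshold 0.05), so fold changes of low genes are understated. Subregion and interaction fits used 6 groups. The method was tested on simulated data. Same-animal libraries, paired by the labels, had deviation correlations of -0.11 to 0.092 in 14 pairs.

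Members and lists were chosen with earlier results of these data known. Text names all 9 members, the smallest adjusted p of each list (at most 4 in oligodendrocyte lists, otherwise 2, with Cntnap2 and Fdft1 named beyond that after their values were seen) and the 10 genes likest to the members, except results not reported here. Alternatives covered scaling, filter, pseudocount, robust estimation, blocks, covariates and left-out animals. p-values measure the spread between animals within a subregion, and in all other fits the spread between libraries, several of which share an animal.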

Additional observations from a re-analysis of the deposited data

How the results depend on the processing

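The count of members that passed stayed at 0 in 145 of 149 alternatives. The exceptions are all in DG: 1 with no robust estimation (Mbp, adjusted p = 0.0473), 1 with the replicate block (Mbp, -0.37), and 0 to 4 with 1 animal left out. Trained and untrained animals share only a number (correlations of deviations -0.18 to 0.12 in 7 pairs). The block left every other count at 0, as did the animal term in subregion and interaction fits. In CA3, where its estimates equal those without trained 3, the block turned Mbp to -0.012, Mog to -0.078 and Ermn to -0.12. Without the 2 libraries whose sex-linked transcripts stand apart, CA3 values were -0.15 for Mbp, -0.11 for Mog, -0.038 for Cnp, -0.13 for Opalin, -0.15 for Ermn and -0.19 for Mal. Cldn11 in DG was 0.0062 with upper-quartile scaling and 0.020 with the block.

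With 1 animal left out, CA3 values ran from -0.15 to 0.60 for Mbp, -0.11 to 0.50 for Mog, -0.038 to 0.58 for Cnp, -0.13 to 0.51 for Opalin, -0.15 to 0.25 for Ermn and -0.19 to 0.65 for Mal. In CA1 they ran from -0.29 to 0.10 for Mag, -0.32 to 0.011 for Mobp and -0.20 to 0.22 for Cldn11, and in DG from -0.14 to 0.20 for Mag, -0.54 to 0.017 for Mobp and -0.23 to 0.18 for Cldn11. Of 378 alternatives for the 27 single-subregion values, 349 kept the direction. A sex-linked covariate moved the combined median from -0.08 to 0.67 and turned Car2 to 0.092, Cryab to 0.13 and Enpp6 to 0.32, and no member passed. The cause of these moves was not tested. A term for the libraries with many genes at 0, chosen after seeing the data, left the counts of the combined, subregion and interaction fits at 0. In CA1 and DG it coincides with training and could not be fitted, and in CA3 it was not run. All libraries in one fit also ended the calls of Qdpr, Bcas1 and Cntnap2 (adjusted p = 0.438, 0.286 and 0.302), and no robust estimation those of these genes, Olig1 in CA3, Car2 and Ptprz1. No low-value filter ended those of Qdpr, Olig2, Car2 and Ptprz1, the other pseudocount those of Cntnap2 and Car2, and the term for genes at 0 that of Car2. Without DG trained 3 those of Qdpr, Bcas1 and Ank3 ended. Depth in reads is unknown, and 2 or 3 animals per group limit what can be detected.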

Other observations

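Around the myelin genes, a few genes of other stages and partners differed between trained and untrained mice over the subregions combined, where 10.3% of all genes passed. With the sex-linked covariate none of the genes named here for that fit passed, and Enpp6, Cryab and Car2 changed sign. Enpp6, a marker of newly formed oligodendrocytes, fell by 0.79 on the log2 scale (SE 0.195, adjusted p = 0.0106, limma), 1 of 8 genes of its list, and did not pass without trained 2 or untrained 2 (adjusted p = 0.0675 and 0.0702). Of 10 precursor genes, Matn4 rose by 0.66 (adjusted p = 0.00591) and Ptprz1, a receptor phosphatase, fell by 0.14 (adjusted p = 0.0471). Matn4 was lost without trained 2 (0.0645), and Ptprz1 without trained 1, trained 2 or untrained 1 (0.089 to 0.470), with the replicate block (0.054) and without CA3 untrained 1 and DG trained 3 (0.173). With the sex-linked covariate they stood at 0.552 and 0.328. Among mature genes, Cryab fell by 0.43 (adjusted p = 0.0253), lost without trained 2, untrained 1 or untrained 2 (0.105 to 0.126), and among enzymes Car2, carbonic anhydrase, fell by 0.19 (adjusted p = 0.0495), lost with any animal but trained 3 left out (0.0858 to 0.189).

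Axonal partners of the sheath are made by neurons. Cntnap1, the axonal protein of the paranodal junction, rose in CA1 by 0.43 (SE 0.053, adjusted p = 7.14e-05) and over the subregions combined by 0.30 (adjusted p = 0.000302). It passed with each animal left out, but in the combined fit not with the sex-linked covariate (0.362). Its junction partner Cntn1 rose in CA1 by 0.19 (adjusted p = 0.0132) and Cntnap2, of the juxtaparanode, fell by 0.27 (adjusted p = 0.0497), while in DG Ank3, the scaffold of the node, fell by 0.27 (adjusted p = 0.017). Cntn1 was lost without trained 2, trained 3 or untrained 1 (0.0547 to 0.0608), Cntnap2 without trained 1, trained 2, untrained 1 or untrained 3 (0.0997 to 0.191) and with the replicate block (0.0547), and Ank3 with any 1 trained animal left out (0.0638 to 0.103). These were 3 of 8 genes of the list in CA1, 1 of 8 in DG and 1 of 8 combined, where 5.23%, 3.39% and 10.3% of all genes passed. In cholesterol synthesis, the pathway that supplies the main lipid of myelin, 3 of 15 genes passed over the subregions combined, where 10.3% of all genes did. In CA1 1 of 15 passed, and in CA3 and DG 0. In the combined fit Sqle and Fdft1 rose by 0.25 and 0.19 (adjusted p = 0.00912 and 0.0255). Sqle was lost without trained 2 or untrained 1 (0.0838 and 0.162), Fdft1 without trained 2, trained 3, untrained 1 or untrained 3 (0.0508 to 0.175) or without CA3 untrained 1 and DG trained 3 (0.118), and both with the sex-linked covariate (0.703 and 0.206).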
